A study of Mus musculus with 2 samples.

Results

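The 5147 regions described here are stretches of open chromatin that lay outside every protein-coding gene body, yet close to a gene start. Their centres were more than 1 kb and at most 10 kb from the nearest protein-coding transcription start site of GENCODE M21 on the mouse build mm10. They were chosen by position alone, from 74516 merged regions that overlapped a peak of both replicates by at least 1 bp. DNase-seq, in which the enzyme DNase I cuts DNA where it is not wrapped tightly, was measured in the gastrocnemius, a calf muscle. The 2 samples were biological replicates 1 and 2 of 1 group, male adult mice of the F1 hybrid strain B6CASTF1/J aged 18 to 20 months. The labels give both samples 1 donor and separate biosamples, which does not settle whether 1 animal or more was used, and there was no second group. An F1 hybrid carries 1 genome from each parent strain, and both alleles were read against the same reference genome.

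Intergenic open regions near a start site hold enhancers, which raise transcription of a gene at a distance, and sites of the protein CTCF, which binds DNA at loop ends and domain borders. They also hold promoters of genes outside the protein-coding set, such as tRNA genes, which RNA polymerase III reads. Within such a region, a bound protein can shield its site from DNase I, which leaves a short stretch of fewer cuts called a footprint.

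The sequences of 6 members show what such a region looks like. Txn2 and Ptma stand for the highest signals, Fkbp5, Nr1d1 and Mef2d for glucocorticoid, clock and muscle regulators, and Jph2 for a muscle gene with 2 copies of the CTCF core. Each is read from the RefSeq genome GRCm38 on the + strand, and is named by the gene with the nearest start site, which says nothing of the gene it acts on. Capitals mark bases that lay in a footprint of both replicates.
Txn2 chr15:77933841-77934060: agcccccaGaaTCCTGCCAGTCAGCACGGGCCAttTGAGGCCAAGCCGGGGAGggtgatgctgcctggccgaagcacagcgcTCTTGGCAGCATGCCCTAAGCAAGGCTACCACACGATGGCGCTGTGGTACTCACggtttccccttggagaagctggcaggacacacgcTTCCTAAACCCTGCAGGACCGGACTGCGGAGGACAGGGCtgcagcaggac
Ptma chr1:86525281-86525500: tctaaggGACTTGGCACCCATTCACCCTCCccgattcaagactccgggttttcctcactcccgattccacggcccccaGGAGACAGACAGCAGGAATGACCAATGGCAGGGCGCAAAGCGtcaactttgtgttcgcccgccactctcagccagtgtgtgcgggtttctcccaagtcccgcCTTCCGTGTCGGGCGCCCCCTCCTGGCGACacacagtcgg
Fkbp5 chr17:28522601-28522800: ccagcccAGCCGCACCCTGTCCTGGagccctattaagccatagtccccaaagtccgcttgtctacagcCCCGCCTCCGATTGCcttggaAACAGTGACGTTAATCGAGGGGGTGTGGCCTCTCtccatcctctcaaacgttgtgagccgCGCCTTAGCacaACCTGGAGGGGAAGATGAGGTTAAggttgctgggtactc
Nr1d1 chr11:98783381-98783640: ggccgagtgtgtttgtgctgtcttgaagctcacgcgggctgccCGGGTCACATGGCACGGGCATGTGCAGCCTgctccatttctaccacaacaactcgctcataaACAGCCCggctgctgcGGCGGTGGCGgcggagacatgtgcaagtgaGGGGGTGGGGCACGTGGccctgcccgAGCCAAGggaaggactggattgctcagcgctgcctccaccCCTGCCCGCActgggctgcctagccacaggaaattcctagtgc
Mef2d chr3:88138341-88138560: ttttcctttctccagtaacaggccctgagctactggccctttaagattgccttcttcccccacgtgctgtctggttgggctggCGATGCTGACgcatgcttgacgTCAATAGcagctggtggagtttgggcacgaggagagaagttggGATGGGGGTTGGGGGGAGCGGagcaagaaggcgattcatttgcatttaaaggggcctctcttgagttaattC
Jph2 chr2:163401301-163401520: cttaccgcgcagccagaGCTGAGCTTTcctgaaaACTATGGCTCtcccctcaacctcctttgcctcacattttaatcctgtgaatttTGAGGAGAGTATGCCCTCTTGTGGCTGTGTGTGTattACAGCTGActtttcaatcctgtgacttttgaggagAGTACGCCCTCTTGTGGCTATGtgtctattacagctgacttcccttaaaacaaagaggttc
The Ptma member held the CTCF core letters GCCCCCTCCTGG at bases 195 to 206, counted from 1 at the left end, all within a shared footprint. In the Jph2 member the core letters GCCCTCTTGTGG occurred at bases 100 to 111 and again at bases 165 to 176, and both copies lay wholly in shared footprints. The Nr1d1 member held CACGTG, the E-box read by CLOCK and BMAL1 among other factors, at bases 162 to 167, also wholly footprinted. The Mef2d member held the letters CACGTG at bases 61 to 66 and the myogenic E-box CAGCTG at bases 113 to 118, with no base of either in a shared footprint.

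Each region takes the highest signal of its peaks, in the authors' unit, whose scale is not stated. The members had a median signal of 1.14 in replicate 1 and 1.02 in replicate 2. Promoter regions, with a centre up to 1 kb from a start site, had medians of 1.81 in replicate 1 and 1.85 in replicate 2. Gene body regions at the same 1 to 10 kb distance had medians of 1.01 and 0.878. Intergenic regions over 10 kb away had medians of 0.853 and 0.738. In both replicates the members stood between promoter regions and the gene body and distal classes. Their 95th percentiles were 3.93 and 3.96, against 8.21 and 8.84 for promoter regions.

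**Figure D1:**
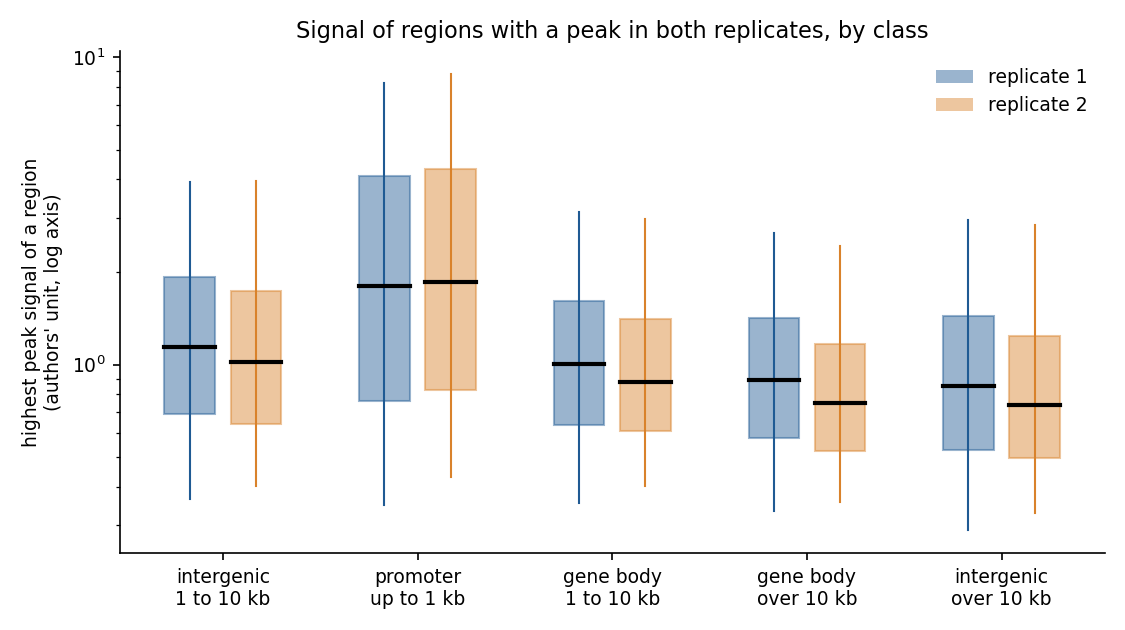
Highest peak signal per region on a log axis, for the members (left) and the 4 other classes of regions called in both replicates; black lines are medians, boxes run over the 25th to 75th percentile and lines over the 5th to 95th. The members' medians of 1.14 in replicate 1 and 1.02 in replicate 2 lie below those of promoters and above those of the other intergenic and gene body regions.

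Members were as wide as other regions, at a median of 220 bp against 220 bp over all regions. Their median GC content over the central 200 bp was 52.5%, against 64.0% in promoter regions and 51.5% in distal intergenic regions. The ratio of observed to expected CpG had a median of 0.265 in members, 0.748 in promoter regions and 0.250 in distal intergenic regions. By base composition the members were therefore like distal regions and unlike promoters. A footprint was found in 96.3% of the members in replicate 1 (95% interval 95.8 to 96.8) and 93.3% in replicate 2 (92.6 to 93.9). The background was 93.6% of all regions in replicate 1 and 90.7% in replicate 2. A footprint that both replicates shared lay in 82.2% of members and 76.7% of all regions. A peak of the smaller, strict list overlapped 89.2% of members in replicate 1, against 88.6% of all regions, and 69.1% in replicate 2, against 68% of all regions. The strict list shares of members were close to the background. The footprint shares were above it, by more than counting error in each replicate. Promoter regions, at 89.3% in replicate 1 and 89.0% in replicate 2, lower that background. In replicate 1 gene body regions over 10 kb away had 95.8% (95.4 to 96.0), the only class interval that overlapped that of the members. In replicate 2 the nearest class, gene body regions at 1 to 10 kb, had 92.0% (91.4 to 92.5). The shared footprint share was the highest of the 5 classes. Intervals are exact Clopper-Pearson intervals and cover counting error only.

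Of 8557 peaks of replicate 1 that met the same position rule, 61.5% (60.5 to 62.5) overlapped a peak of replicate 2, and the background over all its peaks was 58.4%. Of 6409 such peaks of replicate 2, 81.9% (80.9 to 82.8) overlapped a peak of replicate 1, against 83.6% of all its peaks. Peaks of the class found in 1 replicate alone were weak, with median signals of 0.406 in replicate 1 and 0.246 in replicate 2. Across the 5147 members the log2 signals of the replicates had a Pearson correlation of 0.920, given as a description over regions of the same libraries. The signal differed more than 2-fold in 2.93% of them, 132 with the higher value in replicate 1 and 19 with the higher value in replicate 2. Depth is unknown, since the files give neither reads nor cuts.

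Members were packed closest to the start site, on its upstream side. Intergenic sequence between 1 and 2 kb upstream held 50.3 members per Mb, that between 2 and 3 kb 37.0 per Mb and that between 9 and 10 kb 28.1 per Mb. On the downstream side the density ran from 22.2 to 34.7 members per Mb, with no fall away from the start site. The zone as a whole held 33.8 regions per Mb, against 14.2 per Mb of intergenic sequence over 10 kb from a start site. Of the members, 4266 (82.9%, 81.8 to 83.9) lay upstream and 881 downstream. The rule leaves less sequence downstream, where gene bodies lie. Upstream intergenic sequence in the zone came to 123 Mb and downstream intergenic sequence to 29.0 Mb, with 34.7 and 30.4 members per Mb. The upstream share was 96.3% at 1 to 2 kb, 87.3% at 2 to 5 kb and 75.1% at 5 to 10 kb. These shares are not corrected for the sequence available, which also became less one-sided with distance. It was 16.7 Mb upstream and 1.23 Mb downstream at 1 to 2 kb, and 11.1 and 4.09 Mb at 9 to 10 kb.

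**Figure D2:**
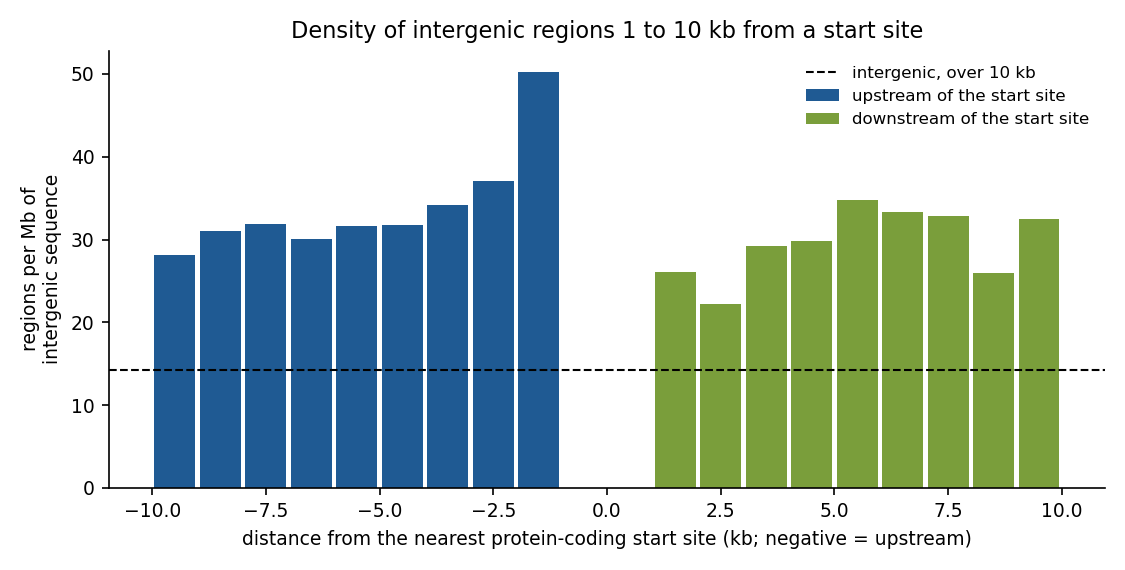
Members per Mb of eligible intergenic sequence in 1 kb steps of distance from the nearest protein-coding start site, upstream at negative and downstream at positive values; the dashed line is the density of intergenic regions over 10 kb away. Density is highest at 50.3 per Mb 1 to 2 kb upstream, and all steps lie above the dashed line at 14.2.

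Signal changed little with distance. Members 1 to 2 kb away had medians of 1.22 in replicate 1 and 1.10 in replicate 2, those 2 to 5 kb away 1.15 and 1.03, and those 5 to 10 kb away 1.12 and 0.989. Downstream members had medians of 1.19 and 1.05, and upstream members 1.14 and 1.01. Among downstream members, 29.2% lay within 1 kb of the 3′ end of a protein-coding gene, against 2.72% of upstream members. Unbroken runs of accessible sites around a member seldom reached the promoter, and covered the nearest start site in 2.20% of members in replicate 1 and 1.36% in replicate 2. At the lower limit, the 125 members at 1000 to 1100 bp had medians of 1.20 in replicate 1 and 1.09 in replicate 2, and the 131 promoter regions outside gene bodies at 900 to 1000 bp had 1.05 and 0.906. Just inside that limit, the Ormdl3 member at 1002 bp had signals of 1.14 and 1.49 and the Trp63 member, also at 1002 bp, 0.787 and 0.788. Just outside it, the Gadd45g region at 997 bp had 3.22 and 3.54 and the Efna1 region at 998 bp 2.56 and 2.57. At the upper limit, the 43 members at 9900 to 10000 bp had medians of 1.03 in replicate 1 and 0.945 in replicate 2, and the 50 intergenic regions within 100 bp beyond the limit had 1.29 and 1.29. Of the regions just outside, the Cd300e region at 10003 bp and the Tbc1d22a region at 10008 bp had 0.609 and 0.934, and 0.772 and 0.922.

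Other annotation accounted for a minority of the members. The centre lay within 1 kb of the start of a long noncoding RNA gene in 5.50% of members (4.89 to 6.16), against 5.45% of all regions. A body of such a gene was overlapped by 13.3% of members, against 10.7% of all regions and 17.1% of distal intergenic regions. RefSeq, which draws some genes longer than GENCODE does, placed 8.57% of the members in a protein-coding gene and 5.05% within 1 kb of a start site in its table. The nearest gene had a promoter region called in both replicates for 76.0% of the members, against 87.0% of all regions, 85.6% of gene body regions at 1 to 10 kb and 78.4% of distal intergenic regions. Promoter regions have such a promoter region by definition (100%), which raises the share over all regions. Among the classes other than promoter regions, the members had the lowest share. Of 13524 genes with such a promoter region, 19.8% were nearest to at least 1 member, and of 8342 genes without one, 11.3% were.

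The strongest members had signals above the 95th percentile of promoter regions. The member with the highest mean rank lay 4944 bp upstream of Txn2, which encodes mitochondrial thioredoxin, at chr15:77933841-77934060, with signals of 10.8 in replicate 1 and 13.4 in replicate 2. The next lay 1296 bp upstream of Bahcc1, with 11.1 and 11.7. A member 8445 bp upstream of Msl1, a subunit of a histone acetyltransferase complex, had 11.0 and 11.9, and Nr1d1 had the next nearest start site. The Ptma member, 1335 bp upstream of the prothymosin alpha gene, had 10.8 and 11.7. These 4 were above the 99th percentile of all regions in both replicates. The other 6 of the 10 were near Tlcd2, Trappc9, Trpv4, Socs3, Fbrs and Ctdsp1. Trpv4, a calcium-permeable channel gene, had 9.24 and 12.3 at a member 9269 bp upstream. Socs3, a feedback inhibitor of cytokine signalling, had 8.95 and 11.7 at a member 5615 bp downstream, beyond the gene body.

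Members held the CTCF core more often than each of the other classes did. CTCF is a zinc finger protein, and a 12-letter core of its site, searched on both strands in the central 200 bp, was found in 1012 members (19.7%, 18.6 to 20.8). The share was 11.2% over all regions, 4.33% in promoter regions (4.06 to 4.62), 12.5% in gene body regions at 1 to 10 kb (11.8 to 13.1) and 14.0% in distal intergenic regions (13.6 to 14.5). These intervals do not overlap that of the members, and they cover counting error only. With strength, the share was 10.7% in the weakest quartile of the members by mean rank, 17.7% and 24.0% in the middle ones and 26.2% in the strongest. Members with the core had median signals of 1.45 in replicate 1 and 1.30 in replicate 2, and members without it 1.06 and 0.956. By distance, the share was 15.2% at 1 to 2 kb, 21.5% at 2 to 5 kb and 19.9% at 5 to 10 kb.

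From the strongest members with the core, 8 are aligned here on the strand of the motif, with capitals for the core. They were picked by a match to the core, so the likeness of the capitals was set by the search.
Ptma chr1:86525465-86525496 (- strand): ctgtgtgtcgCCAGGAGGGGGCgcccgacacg
Trpv4 chr5:114667711-114667742 (- strand): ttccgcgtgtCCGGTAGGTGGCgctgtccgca
Sema3b chr9:107612825-107612856 (- strand): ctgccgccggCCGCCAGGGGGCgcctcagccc
Sgca chr11:94979081-94979112 (+ strand): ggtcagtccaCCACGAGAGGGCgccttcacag
Pllp chr8:94704202-94704233 (+ strand): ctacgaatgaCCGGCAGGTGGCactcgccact
Lag3 chr6:124903740-124903771 (+ strand): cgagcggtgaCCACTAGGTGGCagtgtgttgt
Olfr750 chr14:51064951-51064982 (- strand): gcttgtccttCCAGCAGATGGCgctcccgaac
Stard10 chr7:101310780-101310811 (+ strand): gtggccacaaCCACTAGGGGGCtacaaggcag
All 8 cores overlapped a shared footprint. The Ptma and Trpv4 members had the highest signals of the set. The Sema3b member had signals of 8.07 in replicate 1 and 8.73 in replicate 2, and the Sgca member, near the gene of a dystrophin-associated sarcoglycan, 7.63 and 7.65. The Lag3 member had 6.80 and 7.22 and the Stard10 member 6.52 and 6.55. The other 2 of the 8, near Pllp and Olfr750, lay over tRNA genes. The Olfr750 member had 6.31 and 7.39, and the Pllp member is described with the tRNA genes.

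The CTCF core lay in footprints far more often than the other motifs with at least 100 matches. Over the whole regions there were 1049 core matches, and 94.8% lay in a footprint of replicate 1 and 90.8% in one of replicate 2, where at least 50% of the letters had to be covered. Footprints took up 18.8% of member bases in replicate 1 and 15.4% in replicate 2. The GC box GGGCGGG, read by SP and KLF factors, lay in a footprint for 47.2% of 625 matches in replicate 1 and 44.6% in replicate 2. CACGTG was footprinted in 34.3% and 26.5% of 309 matches. The myogenic E-box CAGCTG, read by the MyoD family, was footprinted in 24.6% and 22.7% of 1465 matches. AP-1, searched as TGANTCA, was footprinted in 13.1% and 9.80% of 612 matches, and the forkhead site TGTTTAC in 1.97% and 1.97% of 152. These last 2 lay below the share of bases in both replicates. A footprint needs the protein to stay bound long enough to block cuts, so a low share says nothing of whether a factor bound. The NFI palindrome, rare with 10 matches, was footprinted in all 10 in replicate 1 and 8 in replicate 2.

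**Figure D3:**
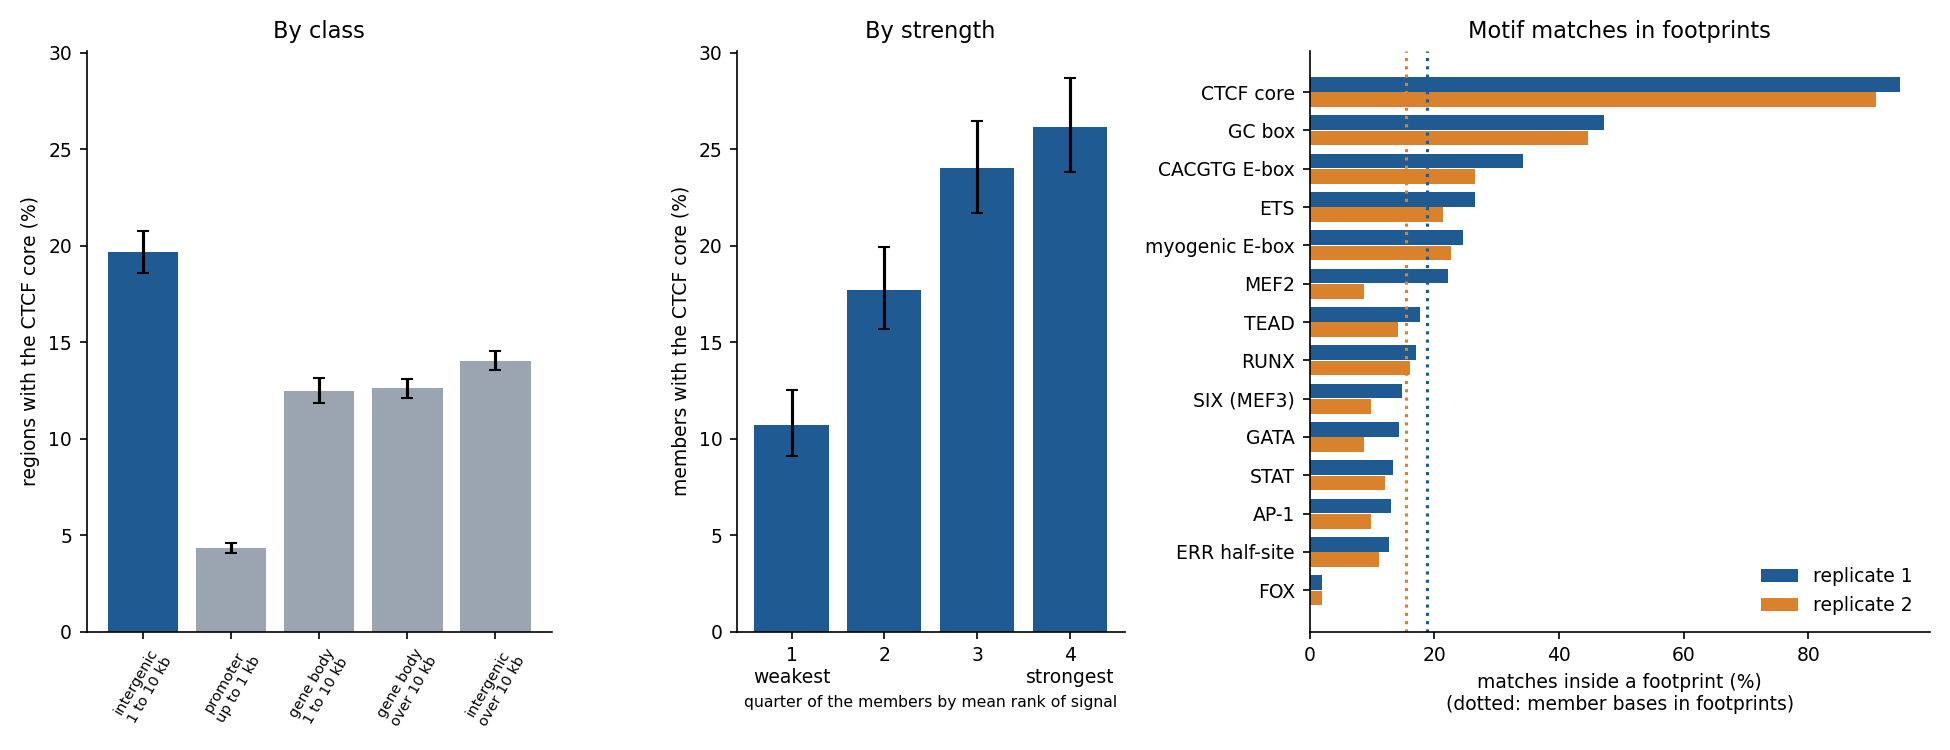
Left, share of regions with the CTCF core in the members and the other classes; middle, the same over quartiles of the members by strength (bars are percentages, error bars exact 95% intervals); right, share of motif matches inside a footprint for the motifs with at least 100 matches, with dotted lines at the share of member bases in footprints. The members hold the core in 19.7%, rising to 26.2% in the strongest quartile, and 94.8% and 90.8% of core matches are footprinted.

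The myogenic E-box was near its share over all regions, and below that of every class but promoter regions. CAGCTG was found in 20.0% of members, against 20.7% of all regions and 13.1% of promoter regions. It was found in 23.2% of gene body regions at 1 to 10 kb, 25.1% of those farther away and 23.2% of distal intergenic regions. By quartile of the members from weakest to strongest, it was found in 20.1%, 20.0%, 20.0% and 20.0%. TGANTCA was found in 9.46% of members and 8.62% of all regions, against 3.54% of promoter regions and 11.3% of distal intergenic regions. The GC box was found in 7.64% of members, 13.7% of all regions and 35.4% of promoter regions, and its share in members was 5.21% in the weakest quartile and 12.0% in the strongest. ETS sites, CCGGAAG, were found in 2.51% of members, 4.23% of all regions and 10.7% of promoter regions. MEF2 sites were found in 2.33% of members, 2.32% of all regions and 0.937% of promoter regions. In the shares of the GC box, ETS, AP-1 and MEF2 sites the members were nearer to distal intergenic regions than to promoter regions. The TEAD site GGAATG was found in 12.1% of members and 11.6% of all regions, and CACGTG in 4.72% and 4.93%. The MEF3 site TCAGGTT was found in 3.54% of members and 2.83% of all regions, and the RUNX site TGTGGTT in 4.31% and 3.65%. The ERR half-site AAGGTCA was found in 4.14% of members and 3.85% of all regions, the STAT site TTCNNNGAA in 6.00% and 5.48%, and the GATA site AGATAA in 4.82% and 4.88%. The forkhead site was found in 2.12% of members and 2.40% of all regions, the NFI palindrome in 0.194% and 0.0913%, and the CArG box of SRF in 1.11% and 0.957%. Such matches are letters in a window and not measured binding.

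A second set of strong members lay over tRNA genes. RefSeq tRNA genes were overlapped by 70 members (1.36%, 1.06 to 1.72), against 0.145% of promoter regions (0.0978 to 0.207) and 0.405% of distal intergenic regions (0.323 to 0.502). Their median signals were 2.49 in replicate 1 and 2.58 in replicate 2, and those of the 5062 members over no small RNA gene were 1.13 and 1.01. They made up 3.57% of the strongest quartile of the members and 0.233% of the weakest. Of 103 tRNA genes in the intergenic zone 1 to 10 kb from a protein-coding start site, 71 (68.9%) lay in a region called in both replicates, against 84 of 241 (34.9%) in intergenic sequence farther away. The share was 33 of 42 (78.6%) within 1 kb of a start site and 5 of 8 (62.5%) in gene bodies at 1 to 10 kb. The 30 promoter regions over a tRNA gene had higher medians than the members, 3.87 in replicate 1 and 4.19 in replicate 2. The 83 distal intergenic regions over a tRNA gene had 2.36 and 2.34, against 0.853 and 0.732 for distal regions over no small RNA gene. A high signal over tRNA genes was therefore not particular to the members. Chromosome 11 held 27 of the 70 members and chromosome 13, which carries the large histone and tRNA gene cluster, 19.

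Transfer RNA genes carry their promoter inside the transcribed sequence, in the A and B boxes that the factor TFIIIC reads. The core of the B box, GGTTCGA, was searched in whole regions on both strands after the tRNA members had been seen. It was found in 45 of the 70 (64.3%, 51.9 to 75.4) and in 35 of the 5062 members over no small RNA gene (0.691%, 0.482 to 0.960). The B box is part of a tRNA gene, so this difference follows from how the 70 were picked and is only a description. Among regions of other classes over a tRNA gene, 59 of 83 distal intergenic ones (71.1%) and 20 of 30 promoter ones (66.7%) held it. Searched in the same way over whole regions, and not only in the central 200 bp, the CTCF core was found in 3 of the 70 (4.29%) and in 1032 of the 5062 (20.4%). Of these 70 members, 1 of the strongest is shown whole, with capitals for bases in a footprint of both replicates.
Pllp chr8:94704021-94704260: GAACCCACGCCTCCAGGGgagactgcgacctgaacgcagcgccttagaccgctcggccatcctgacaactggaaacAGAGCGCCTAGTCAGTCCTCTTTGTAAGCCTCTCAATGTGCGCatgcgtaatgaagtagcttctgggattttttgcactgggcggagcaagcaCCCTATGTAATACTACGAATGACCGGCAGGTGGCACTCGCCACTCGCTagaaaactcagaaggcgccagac
The Pllp member overlapped n-TLcag4, a leucine tRNA gene, and held a footprinted CTCF core at bases 192 to 203. Its signals were 6.15 in replicate 1 and 9.48 in replicate 2. The core of the B box is shown for 2 other strong members over tRNA genes, aligned on its strand with the core in capitals.
Zfp692 n-TLcaa3 chr11:58302479-58302505 (- strand): tggaggcgtgGGTTCGAatcccacttc
Borcs6 n-TSgct3 chr11:69063047-69063073 (- strand): tgcacgcgtgGGTTCGAatcccatcct
The core overlapped a shared footprint near Borcs6 and none near Zfp692. The Zfp692 member, over a leucine tRNA gene, had signals of 5.96 in replicate 1 and 8.39 in replicate 2, and the Borcs6 member, over a serine tRNA gene, 5.22 and 6.64.

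Clusters of tRNA genes gave several members to 1 gene. All 7 members nearest to Aurkb, a mitotic kinase gene, lay over tRNA genes, for the amino acids isoleucine, serine, threonine, proline, aspartate, glycine and tryptophan. Their signals ran from 1.76 to 4.45 in replicate 1 and from 1.86 to 4.87 in replicate 2. Such members share a locus and are no independent support for one another. Members also lay over other small genes read by RNA polymerase III. Rn7s2, which encodes an RNA of the signal recognition particle, was overlapped by 2 members, with signals of 7.80 and 0.579 in replicate 1 and 9.80 and 0.481 in replicate 2. The member over Rn7sk, whose RNA holds back the elongation factor P-TEFb, had 1.99 and 1.92. MicroRNA genes were overlapped by 4 members, 1 of them over Mir132 and Mir212 near Hic1 with 1.45 and 1.67.

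**Figure D4:**
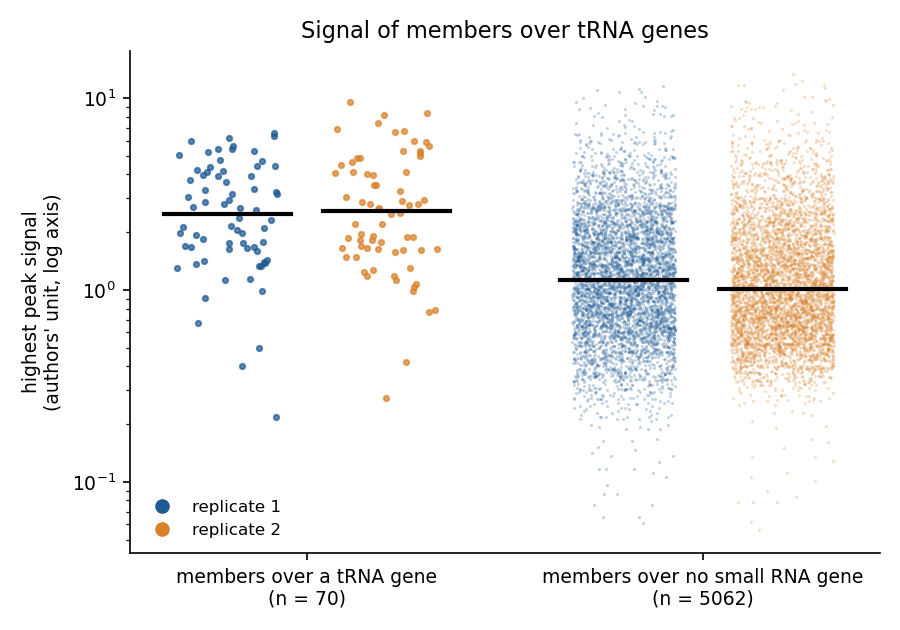
Highest peak signal on a log axis of the 70 members over a tRNA gene (left) and the 5062 members over no small RNA gene (right), 1 point per member and replicate; black lines are medians. The tRNA members have medians of 2.49 and 2.58, against 1.13 and 1.01.

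By chromosome, chromosome 11 had the most members, 551, or 4.51 per Mb of its length. The X chromosome had 94, or 0.550 per Mb. Members on the X had median signals of 0.701 in replicate 1 and 0.573 in replicate 2, and those on autosomes 1.16 and 1.02. Both samples were male. Promoter regions differed in the same direction, with 0.982 and 1.05 on the X and 1.85 and 1.89 on autosomes.

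The members were nearest to 3625 of 21866 protein-coding genes, or 16.6%, and 2613 of these genes had 1 member each. The tissue label was checked on promoters. A promoter region was called in both replicates for 28 of 35 contractile genes and 18 of 20 excitation genes, against 5 of 12 neuron genes, 3 of 11 heart genes, 1 of 12 liver genes and 1 of 10 germ cell genes. Over all genes it was 13524 of 21866, and it was 7 of 13 for hindlimb position genes and 5 of 9 for adipocyte genes. All 15 housekeeping genes had one, as did 13 of 16 endothelial and 14 of 16 fibroblast genes, types of cell that muscle also holds. The sample holds every cell type of a muscle, and in bulk tissue fewer cells of a type and less open chromatin per cell cannot be told apart.

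Of the 21 gene lists, the one of genes that respond fast to stimuli had the most members. Of 27 immediate early and AP-1 genes, 23 (85.2%) were nearest to at least 1 member, with 51 members in all and medians of 2.16 in replicate 1 and 2.01 in replicate 2, beside 16.6% of all genes and medians of 1.14 and 1.02 over all members. Ier2, a growth factor induced gene, had 8.21 and 8.74 at 1218 bp upstream. Nr4a1, an orphan nuclear receptor gene, had 6.59 and 7.61 at 7798 bp upstream. Jun, which encodes an AP-1 subunit, had 6.52 and 6.33 at 1138 bp upstream, and Fos, which encodes its partner, 3.27 and 3.25 at 1619 bp upstream. Klf9, a glucocorticoid-induced factor gene, had 4 members between 4545 and 7025 bp upstream, the strongest with 5.82 and 6.43. Its member at 5415 bp upstream held 14 footprints in replicate 1 and 14 in replicate 2. Weak members occurred too, such as one 2219 bp upstream of Klf4 with 0.563 and 0.498.

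Atrophy and glucocorticoid genes had the next highest share, with 16 of 23 genes (69.6%) nearest to 36 members, beside 16.6% of all genes. Fkbp5, a chaperone gene induced by glucocorticoids, had a member at 5176 bp upstream with 8.20 in replicate 1 and 10.1 in replicate 2. A second at 5686 bp upstream had 5.42 and 5.29, and the nearest, at 1476 bp, had 2.61 and 2.26. Foxo3, a transcription factor that drives atrophy genes, had 7.96 and 8.22 at 1015 bp upstream, close to the limit of the zone. Trim63, which encodes the ubiquitin ligase MuRF1, had 4 members between 3139 and 7409 bp upstream, with signals of 1.24 to 2.79 in replicate 1 and 0.945 to 2.69 in replicate 2. Mstn, the gene of the growth inhibitor myostatin, had 1.04 and 0.973 at 8379 bp upstream. The glucocorticoid response element was found in 54 members, 1.05%, against 1.03% of all regions, and 9.38% of its 64 matches were footprinted in replicate 1 and 3.13% in replicate 2.

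The circadian clock list had 9 of 19 annotated genes (47.4%) nearest to 21 members, beside 16.6% of all genes. Nr1d1, which encodes the repressor REV-ERB alpha, had 7, of which the strongest lay 8177 bp upstream with 7.62 in replicate 1 and 8.65 in replicate 2. The other 6 had signals of 0.447 to 2.01 in replicate 1 and 0.548 to 1.63 in replicate 2. Bhlhe41, a clock repressor gene, had 6.51 and 9.17 at 9451 bp downstream. Per1, which encodes a core repressor and is also on the atrophy and glucocorticoid list, had 3.90 and 3.67 at 2676 bp upstream.

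Among myogenic regulators, 8 of 22 genes (36.4%) were nearest to 15 members, beside 16.6% of all genes. Mef2d, a transcription factor gene of muscle, had 5 of them, led by one 3921 bp upstream with 6.35 in replicate 1 and 5.91 in replicate 2. Myod1, the master regulator of the muscle lineage, had a member 5123 bp upstream with 2.11 and 1.44 and one 2716 bp downstream with 3.21 and 2.01. Myf6, its relative in mature fibres, had 1.69 and 1.15 at 5123 bp upstream. Myog, of differentiating muscle, had 1.05 and 0.682 at 1548 bp upstream.

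Muscle structure genes had members of middling signal. In the contractile and Z-disc list 10 of 35 genes (28.6%) were nearest to 14 members, beside 16.6% of all genes and 27.3% of the heart list. Tnnt3, which encodes the troponin T of fast fibres, had 3.04 in replicate 1 and 2.28 in replicate 2 at 2442 bp upstream. Myh4, the gene of the fastest myosin heavy chain, had 2.97 and 1.20 at 2198 bp upstream and 1.61 and 1.03 at 7878 bp upstream. Flnc, a Z-disc filamin gene, had 2.81 and 2.04 at 2385 bp upstream. Ryr1, the gene of the calcium release channel of the triad, had 3.08 and 2.76 at 1569 bp upstream. Atp2a1, the calcium pump gene of fast fibres, had 3 members between 1192 and 2672 bp upstream, with 1.74 to 2.71 in replicate 1 and 1.44 to 1.86 in replicate 2. Jph2, whose product ties the tubule to the calcium store, had 2.78 and 2.20 at the member with the doubled CTCF core. At the nerve contact, 8 of 15 genes (53.3%) were nearest to 10 members, beside 16.6% of all genes. Their medians of 0.990 in replicate 1 and 0.735 in replicate 2 lay below the 1.14 and 1.02 of all members. The strongest were near the acetylcholine receptor subunit genes Chrna1, with 1.68 and 1.36, and Chrne, with 1.50 and 1.07. For the glycolysis list, 6 of 23 genes (26.1%) were nearest to 11 members, with medians of 1.21 in replicate 1 and 0.816 in replicate 2. The strongest was near Gpi1, a glycolytic isomerase gene, with 7.42 and 7.84 at 3834 bp upstream. Next came Ldha, lactate dehydrogenase, with 2.94 and 2.62 at 2404 bp upstream. Others were weak, such as the Gyg member with 0.508 and 0.514. Of 24 mitochondrial and fatty acid genes, 11 (45.8%) were nearest to 16 members. Fabp3, which encodes the fatty acid binding protein of heart and muscle, had 3.51 and 2.49 at 9124 bp upstream, and Cs, citrate synthase, 2.42 and 2.70 at 1923 bp upstream. Of 13 hindlimb position genes, 2 homeobox genes (15.4%) had members, a share near the 16.6% of all genes. Hoxa13, of the distal limb, had 2.64 and 2.98 at 3661 bp downstream, and Hoxc10, of the hindlimb, 1.87 and 1.54 at 2885 bp upstream.

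Lists of other cell types had from 0 to 17 members. The macrophage and immune list had none near its 16 genes, and a promoter region for 6. The endothelial list had 7 near 4 of 16 genes, with medians of 0.635 in replicate 1 and 0.822 in replicate 2. The fibroblast list had 17 near 8 of 16 genes, the strongest 7253 bp upstream of the collagen gene Col1a1 with 3.20 and 3.77. The housekeeping list had 16 near 5 of 15 genes (33.3%). Beside 16.6% of all genes, the endothelial, fibroblast and housekeeping shares were higher and the macrophage share was lower. The housekeeping share was also above the 28.6% of the contractile and Z-disc list. A share above that of all genes was therefore not particular to the muscle lists.

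The balance between replicates differed by gene list. The log2 of the signal in replicate 1 over replicate 2 had a median of 0.05 over the members, and 2890 of the 5147 (56.1%) were higher in replicate 1, against a background of 52% of all regions. Promoter regions, at 32.6%, lower that background. The share was 56.6% in gene body regions at 1 to 10 kb, 64.0% in those farther away and 57.6% in distal intergenic regions. Near contractile and Z-disc genes 13 of 14 members were higher in replicate 1, with a median of 0.42. Near excitation and calcium genes 10 of 11 were, with a median of 0.37, and near neuromuscular junction genes 9 of 10, with a median of 0.34. Near myogenic regulators 11 of 15 were, with a median of 0.10, and near mitochondrial and fatty acid genes 10 of 16, with a median of 0.07. Near fibroblast genes 13 of 17 were, with a median of 0.25, and near housekeeping genes 12 of 16, with a median of 0.24. Near glycolysis genes 8 of 11 were (median 0.25) and near atrophy and glucocorticoid genes 25 of 36 (0.09). Near clock genes 11 of 21 were (0.02) and near immediate early genes 25 of 51 (-0.01). Near endothelial genes 0 of 7 were, with a median of -0.56. Over all listed members, the largest log2 ratio was at Myh4 (2.97 in replicate 1 and 1.20 in replicate 2) and the lowest at Sox18, a vascular transcription factor gene (0.756 and 1.53). Egfl7, a secreted vessel factor gene, had 4 of the 7 endothelial members, so that list rests on few loci. Near mural genes 1 of 6 was higher in replicate 1, and near adipocyte genes 0 of 3.

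Motifs differed in this balance too. Of 120 members with a MEF2 site, 96 (80.0%) were higher in replicate 1, with a median log2 ratio of 0.28, against 0.05 for members without it. With the glucocorticoid response element 40 of 54 (74.1%) were, with the MEF3 site 125 of 182 (68.7%) and with AP-1 311 of 487 (63.9%). Of 393 members with the GC box, 143 (36.4%) were, with a median of -0.08. The scale of the signal is not stated, so a ratio describes these libraries only, and the part of cell type shares in it was not tested. Near heart genes 1 of 4 members was higher in replicate 1, near Schwann cell genes 2 of 4, near neuron genes 1 of 3, near liver genes 1 of 3, and the 1 member near a germ cell gene, Sycp3, was higher there too.

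**Figure D5:**
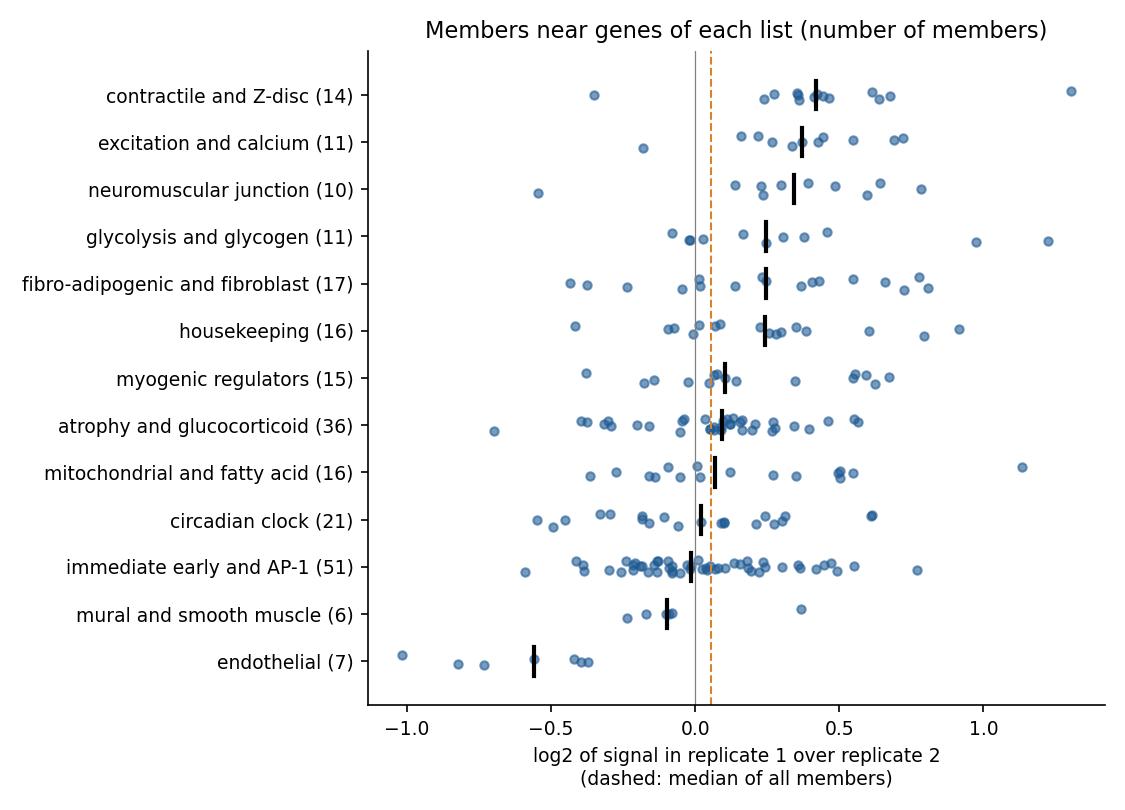
Log2 of the signal in replicate 1 over replicate 2 for members near the genes of each list with at least 5 members, 1 point per member; black lines are medians and the dashed line is the median of all members. Contractile, excitation and neuromuscular junction members lie mostly to the right and all 7 endothelial members to the left.

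Some members stood apart in number, length or balance. Nfatc4 was the nearest gene of 11 members, the highest number. Of these 11, those at 8063 and 7683 bp upstream had 1.78 and 1.26 in replicate 1 and 1.43 and 1.41 in replicate 2. The other 9 had 0.0660 to 0.168 in replicate 1 and 0.0615 to 0.268 in replicate 2, all below the first percentile of signal over all regions in both replicates. The gene 1600014C23Rik had 9 members, and Arl4d and Bcl9l had 7 each. Among the 5 members with the most footprints, the one near Irf2bpl held 13 in replicate 1 and 21 in replicate 2, and the one near Zfp36l1, which encodes an RNA decay factor, 11 and 19. The longest member, 1320 bp near Marcks, had 0 and 1. The least balanced members by rank were those near Arrdc3 (2.02 in replicate 1 and 0.481 in replicate 2) and Slc25a12 (1.47 and 0.425), and in the other direction Apoc1 (0.635 and 1.79) and Nova2 (0.553 and 1.12).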

How the data were processed

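DNase-seq of 2 samples of 1 group was used. Per sample the authors deposited 2 peak lists, accessible sites and footprints on mm10, per the labels; the aligner and callers are not given in the sources used here. Column 7 of the deposited peak lists is a signal on a scale that is not stated, so read depth is unknown. In the deposited site files the p-value column holds false discovery rates under 0.05, and in the footprint files a constant 0.01. The larger (inclusive) peak lists, with 131398 and 91567 peaks, were merged at 1 bp.

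GENCODE M21 protein-coding start sites and bodies placed the regions. Per region the highest signal, the footprints, RefSeq small RNA genes, and 17 motifs on both strands in the central 200 bp of GRCm38 were recorded, and a match was footprinted when 50% of its letters were covered. MEF2, the CArG box, the CTCF core, the NFI palindrome and the glucocorticoid response element are given by name. The members and the 21 gene lists were chosen with earlier results of these data known. Named members were the 10 of highest mean rank, 2 per list, the 5 with most footprints, the 5 genes with most members, the 5 longest, the 4 least balanced by rank and those at the limits, and not all are printed. Some items are not reported here. Other members named illustrate a list and were chosen after their values were seen, as was the B box core. With 2 samples in 1 group nothing was tested, and no p-value of this work is given. Alternatives were the strict lists, the better 50% of peaks, a reciprocal overlap of 50%, other start sites, gene sets, windows and footprint rules, and each replicate left out. Python 3.11.15, pandas 2.3.3, NumPy 2.4.6, SciPy 1.17.1, bedtools 2.31.1 and matplotlib 3.10.9 were used. Region classes and the motif search were tested on simulated data.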

Additional observations from a re-analysis of the deposited data

How the results depend on the processing

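Of 59 recomputed values of the main measures, 21 moved and 38 did not, where counts may differ by up to 1.5 times and other values by the replicate spread or counting interval. The number of members, 5147, was 3336 with the better 50% of each peak list and 3466, just within that wide limit, with the strict lists. The median signal, a mean of both replicates of 1.08, was 1.49 with the strict lists, 1.19 with a reciprocal overlap of 50% and 1.54 with the better 50% of peaks. The share with a footprint, a mean of 94.8%, was 98.0% with the strict lists, 98.6% with the better 50% of peaks and 82.2% when both replicates had to share the footprint. The share upstream, 82.9%, was 86.7% with the 5′-most start site of each gene. The share with any of the 17 motifs, 69.8%, was 71.4% with the strict lists, 71.1% with the better 50% of peaks, 51.3% in 100 bp, 74.0% over whole regions and 35.6% in footprints. With 1 replicate's peaks alone, the number of members ranged from 6346 (without replicate 1) to 8469 (without replicate 2), the median signal from 0.706 to 0.827, the footprint share from 84.0% to 87.6%, the upstream share from 82.43% to 82.44%, the motif share from 66.6% to 68.0% and the members near listed genes, 251 in all, from 303 to 426. The CTCF core share was highest in members and lowest in promoter regions also in 100 bp (18.6% and 3.12%) and over whole regions (20.1% and 5.29%). Of 51 recomputed shares of single motifs, 42 moved. The overlap of class peaks needs both replicates, so it has no value without one. The cause was not tested for any of these. No paired analysis was possible because there is a single group and no contrast.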
